A study of Mus musculus with 22 samples.

Results

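The 9 genes described here encode the thyroid hormone receptors (Thra and Thrb), their dimer partners of the retinoid X receptor family (Rxra, Rxrb and Rxrg) and a small set of coregulators, the corepressor Ncor1, the deacetylase Hdac3 and the coactivators Ncoa1 and Ncoa2. They were chosen by name from what is known of the receptor complex, at a time when earlier results of these data were known. All 9 were rows of both count tables, of 55341 rows in striatum and 47643 in white adipose tissue (WAT). All 9 passed the filter on low counts in both tissues. RNA-seq was done on 22 libraries of C57BL/6J wild-type mice of 8 weeks, labelled male. The controls were labelled hypothyroid after 2 weeks of propylthiouracil (PTU), a drug that blocks the synthesis of thyroid hormone, and numbered 2 in striatum (replicates 3 and 6) and 4 in WAT. The other libraries were labelled as treated with thyroid hormone (TH), for 12 h or 24 h in striatum and for 6 h or 24 h in WAT, with 4 libraries each. The series describes the TH animals of both tissues as hypothyroid, whereas the overview of the study lists no such procedure for striatum, and the labels of the TH libraries do not name PTU.

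Thyroid hormone acts through receptors that sit on DNA with or without ligand, most often as a heterodimer with a retinoid X receptor (RXR). Without hormone the dimer holds a corepressor complex built on NCoR1 with the deacetylase HDAC3. The active hormone T3 exchanges this complex for coactivators of the SRC family (Ncoa1, Ncoa2 and Ncoa3), the acetyltransferases CBP and p300 and the Mediator complex. Thra encodes TRα1 and, by splicing, TRα2, which does not bind the hormone, and counts per gene cannot tell these transcripts apart. TRα1 is the main receptor of the brain, and Rxrg is known as the RXR of striatal projection neurons.

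Total counts were 8056443 to 10163849 per striatum library and 17298747 to 26963433 per WAT library, and the members held 22 to 3973 counts per library in striatum and 219 to 3451 in WAT. Some libraries stood apart from their labels. The library of striatum at 24 h with replicate number 2 had the lowest summed level of the 10 markers of striatal projection neurons (364 CPM, counts scaled to the size of the library, against 2600 to 6804 in the others) and the highest of the 7 markers of cortical excitatory neurons (3028 against 518 to 1948). Counts on 4 Y-linked genes exceeded 50 in 4 of 10 striatum libraries (1 of 2 with PTU, 3 of 4 at 12 h and 0 of 4 at 24 h) and in 12 of 12 WAT libraries, although all were labelled male. In WAT the 7 skeletal muscle markers summed to 99.8 to 23040 CPM with PTU, 42.5 to 4375 at 6 h and 1757 to 12990 at 24 h, and the 7 markers of white adipocytes to 23350 to 31100, 21910 to 28380 and 17950 to 22080 CPM. All adipocyte markers were detected in WAT and all striatal markers in striatum. The labels number the libraries of a group without naming the animals, so the p-values measure the spread between these libraries.

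Promoter windows of RefSeq on GRCm38.p6, from 250 bases before to 50 after a transcript start, were found for 6 of the 9 members (11 windows). They were searched on both strands for the half-site AGGTCA bound by receptors of this family, and for the direct repeat of this half-site spaced by 4 bases (DR4). The half-site was present in 3 of the 11 windows, 1 each of Thrb, Rxra and Rxrg, and in 16.3% of all 32851 windows. The exact DR4 was in 0 of the 11 and in 0.0152% of all windows. Any DR4 match would also count as a half-site. For Thrb and Rxra the WAT libraries of 6 h all lay above the PTU group, though edgeR called neither gene against PTU. For Rxrg, whose window is not shown, they overlapped the PTU group. Thrb, Rxra and Rxrg each had 1 more window, which held no half-site. That of Rxra (chr2:27676951-27677250) lies nearer the start of the gene than its window with a match. Shown are the windows with a half-site of Thrb and Rxra, with the half-site or its reverse complement in capitals. Beside them is a window of Rxrb, the member that rose at both times in WAT, which held no match in either of its 2 windows.
Thrb, chr14:17660710-17661009, plus strand: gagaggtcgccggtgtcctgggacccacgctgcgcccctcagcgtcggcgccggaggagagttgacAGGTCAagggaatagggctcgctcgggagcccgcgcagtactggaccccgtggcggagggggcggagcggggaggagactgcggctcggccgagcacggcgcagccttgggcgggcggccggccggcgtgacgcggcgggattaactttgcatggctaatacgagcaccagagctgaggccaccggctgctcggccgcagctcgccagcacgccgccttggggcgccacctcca
Rxra, chr2:27709042-27709341, plus strand: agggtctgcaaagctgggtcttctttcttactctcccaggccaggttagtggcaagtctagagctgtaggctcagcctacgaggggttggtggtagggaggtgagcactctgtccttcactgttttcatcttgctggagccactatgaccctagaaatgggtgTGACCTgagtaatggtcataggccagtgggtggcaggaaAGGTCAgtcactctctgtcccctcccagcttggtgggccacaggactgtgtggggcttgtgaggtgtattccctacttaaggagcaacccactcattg
Rxrb, chr17:34031562-34031861, plus strand: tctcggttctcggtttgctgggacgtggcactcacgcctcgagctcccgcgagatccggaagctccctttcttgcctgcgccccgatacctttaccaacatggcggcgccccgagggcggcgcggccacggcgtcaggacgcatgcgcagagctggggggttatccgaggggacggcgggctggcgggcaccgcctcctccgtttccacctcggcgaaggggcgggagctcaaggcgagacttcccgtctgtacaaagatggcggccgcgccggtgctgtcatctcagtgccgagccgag
Matches of this kind describe the letters of the window and do not show binding.

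The receptors and RXRs differed in level within each tissue. Levels are given as CPM per kilobase of merged exons, which allows genes of different length to be compared. In striatum with PTU, Thra stood first at 59.5 ± 1.10 (SD, n = 2), followed by Rxrg at 34.3 ± 11.8, Ncoa1 at 25.3 ± 1.56, Hdac3 at 22.4 ± 1.41, Ncor1 at 15.6 ± 0.43, Ncoa2 at 9.85 ± 0.35, Thrb at 6.53 ± 1.00, Rxrb at 2.92 ± 1.08 and Rxra at 1.76 ± 0.17. Only Rxrg and Ncoa1 overlapped among neighbours in this order. In WAT with PTU, Thra came first at 19.1 ± 2.80 (SD, n = 4), ahead of Rxra at 16.5 ± 4.07 and Hdac3 at 13.1 ± 1.10. Rxra overlapped both of these neighbours, and Thra and Hdac3 did not overlap each other. Ncor1 at 8.44 ± 0.07, Rxrg at 7.48 ± 0.70, Ncoa1 at 4.55 ± 0.14 and Rxrb at 3.24 ± 0.38 followed without overlap. Ncoa2 at 2.16 ± 0.11 and Thrb at 2.05 ± 0.29 closed the order and overlapped each other. After TH the first place in WAT went to Rxra, at 23.9 ± 1.27 at 6 h, above every Thra value of that time (12.4 to 14.4), and at 15.1 ± 1.70 at 24 h, where it overlapped Thra. The 2 tables were counted separately, so levels were not tested between tissues.

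**Figure D1:**
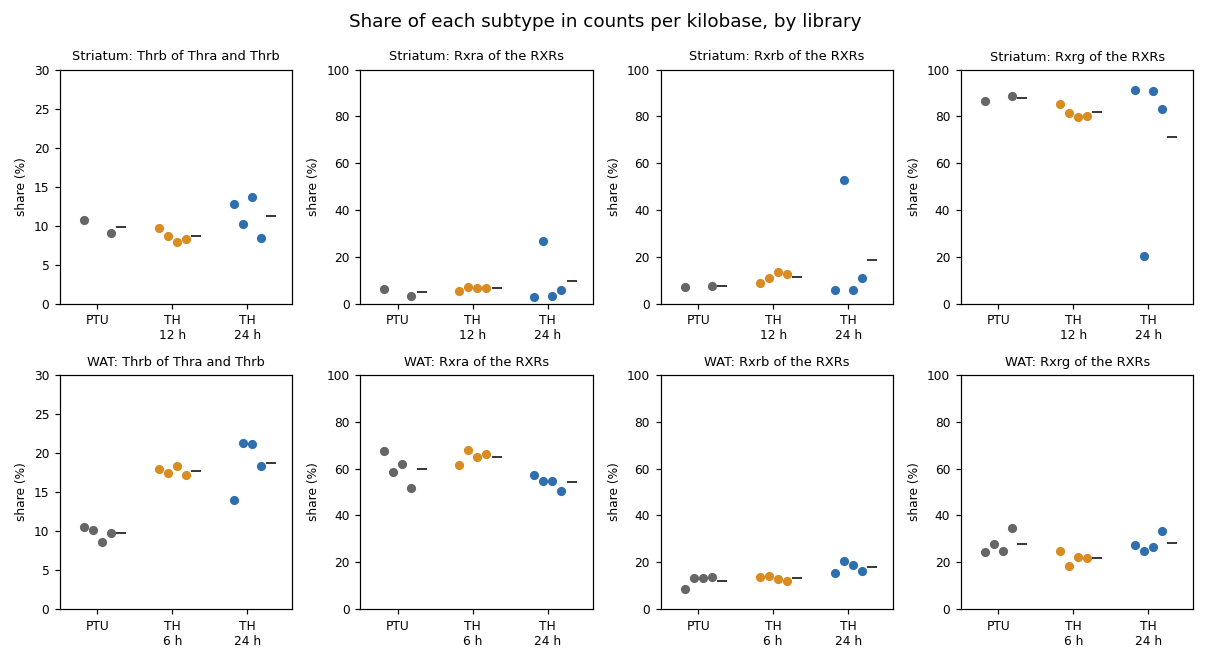
Share of each receptor subtype in the counts per kilobase of its family (percent, vertical axis), by library, for striatum (top) and WAT (bottom). Points are libraries, short black lines are group means, grey is PTU, orange the earlier and blue the later time after TH. In WAT the Thrb share lies between 8.60% and 10.6% with PTU and between 13.95% and 21.2% at 24 h, and in striatum a single library at 24 h holds 20.3% Rxrg.

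The makeup of the RXR family is given first. Rxrg made up 87.7% ± 1.67 (SD, n = 2) of the RXR counts per kilobase in striatum with PTU, and Rxra 59.9% ± 6.53 (n = 4) in WAT with PTU. Rxrb contributed 7.44% ± 0.34 in striatum and 12.2% ± 2.49 in WAT. The share of Thrb among the 2 hormone receptors was alike in the control groups, 9.87% ± 1.20 in striatum and 9.75% ± 0.85 in WAT. In WAT it was 10.6%, 10.1%, 8.60% and 9.68% in the PTU libraries, 17.97%, 17.4%, 18.4% and 17.2% at 6 h, and 13.95%, 21.2%, 21.1% and 18.4% at 24 h, so both TH groups lay above every PTU value. In striatum the share ran from 7.88% to 9.74% at 12 h and from 8.47% to 13.7% at 24 h, against 9.03% and 10.7% with PTU. The plot of shares by library shows these values. They are descriptions and depend on the length assigned to each gene, since the longest transcript in place of merged exons put the WAT means at 6.42%, 12.0% and 12.7%.

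The first comparison asks which of these genes changed in WAT after TH. At 6 h, 2 of 9 members were called at an adjusted p under 0.05, where 7.23% of the 17928 genes tested were called. Rxrb was higher (4.18% of all genes were called higher) and Thra was lower (3.05% called lower). At 24 h, 4 of 9 were called against 17.1% of all genes, with Rxrb higher (7.45% of all genes) and Thra, Ncoa1 and Hdac3 lower (9.62% of all genes). The normalised counts of the TH and PTU libraries did not overlap for 5 of 9 members at 6 h, against 13.9% of all genes, and for 5 of 9 at 24 h, against 19.3%. Both comparisons use the same PTU libraries. The median log2 change of the members was 0.12 at 6 h and -0.13 at 24 h, beside -0.03 and -0.002 over all genes tested.

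**Figure D2:**
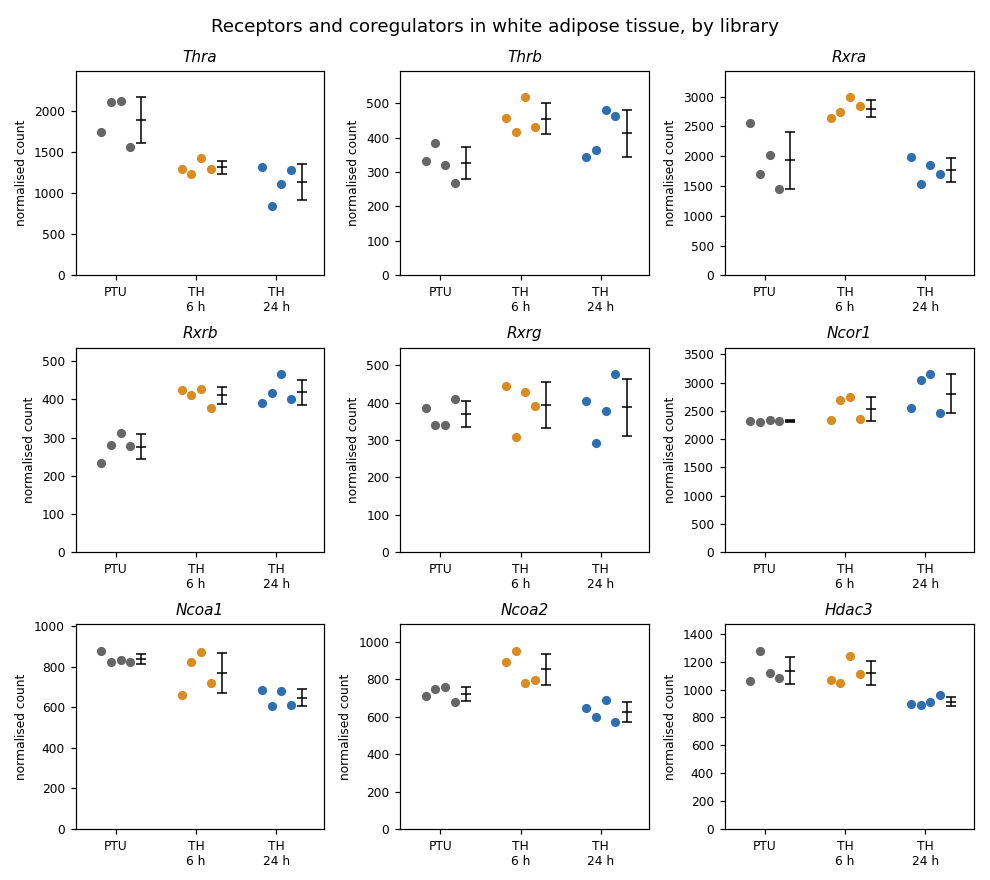
Normalised counts (vertical axes, each from 0) of the 9 members in the 12 WAT libraries. Points are libraries and black bars the mean ± SD of each group (n = 4). Thra lies lower and Rxrb higher in all 8 TH libraries than in any PTU library, and Rxra is high at 6 h and back among the PTU values at 24 h.

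Thra (GRCm38 chr11:98740638-98769006, plus strand) had 1748, 2115, 2123 and 1565 normalised counts in the 4 PTU libraries of WAT. It had 1299, 1232, 1430 and 1293 at 6 h, and 1321, 841, 1116 and 1279 at 24 h. Every TH library was below every PTU library. Thra fell by 0.52 ± 0.14 on the log2 scale at 6 h (SE, edgeR quasi-likelihood test, Benjamini-Hochberg adjusted p = 0.0422) and by 0.73 ± 0.14 at 24 h (edgeR adjusted p = 0.00436). The difference between the times was -0.21 ± 0.14 and was not called (edgeR adjusted p = 0.406). The call at 24 h held without any 1 of the 12 libraries, with an adjusted p of at most 0.0168 in edgeR. The call at 6 h held without 4 of 12 and was lost without PTU replicates 2 or 3, any library of 6 h, or replicates 3 or 4 of 24 h (edgeR adjusted p up to 0.112). In bulk tissue, fewer cells of a type and less RNA per cell cannot be told apart.

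The last exons of Thra overlap those of Nr1d1, a clock gene encoding the repressor REV-ERBα, on the opposite strand. The shared stretch is chr11:98768157-98768419, 263 bases or 5.70% of the merged exons of Thra, and whether the counting used strand is not given in the sources used here. Nr1d1 had 3288, 2657, 2868 and 2528 normalised counts with PTU, 4811, 3456, 4765 and 3985 at 6 h, and 807, 781, 673 and 1313 at 24 h. Its level was thus above the PTU values at 6 h (log2 change 0.59 ± 0.19, edgeR adjusted p = 0.0815) and it fell at 24 h by 1.67 ± 0.19 (edgeR adjusted p = 0.000159). Thra was below the PTU values at both times, which the plot of both genes shows. The part of the shared stretch in the counts of Thra was not tested.

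**Figure D3:**
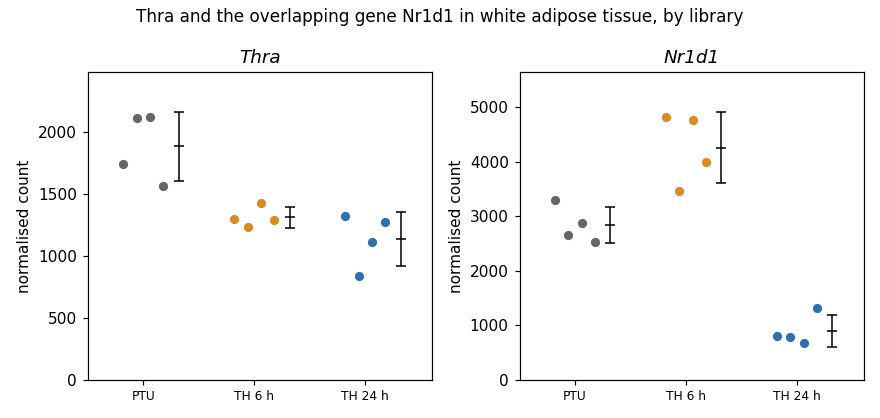
Normalised counts (vertical axes, from 0) of Thra (left) and of Nr1d1, which overlaps its end on the other strand (right), in WAT. Points are libraries and black bars the mean ± SD (n = 4). Thra is lower than with PTU at both times, whereas Nr1d1 lies at 3456 to 4811 at 6 h and at 673 to 1313 at 24 h, with 2528 to 3288 in the PTU group.

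Thrb (chr14:17660261-18038090, plus strand) had 331, 383, 320 and 269 normalised counts with PTU, 456, 416, 516 and 430 at 6 h, and 343, 364, 479 and 463 at 24 h. All 4 libraries of 6 h were above the PTU group, and those of 24 h overlapped it. The log2 change was 0.48 ± 0.14 at 6 h (edgeR adjusted p = 0.0548) and 0.34 ± 0.14 at 24 h (edgeR adjusted p = 0.112), and neither passed the threshold. At 6 h DESeq2 called it (adjusted p = 0.0122), as did edgeR with the size factors of DESeq2 (adjusted p = 0.0464) and with only the 2 groups compared (adjusted p = 0.0475). These were 3 of 9 other settings. With 1 library left out, it was called in 3 of 12 fits (edgeR adjusted p up to 0.129).

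Among the dimer partners, Rxrb (chr17:34031812-34038399, plus strand), the RXR found in most tissues, rose at both times. It had 233, 280, 312 and 279 normalised counts with PTU, 425, 412, 427 and 378 at 6 h, and 390, 416, 466 and 402 at 24 h, so the 8 TH libraries were all above the PTU group. The log2 change was 0.57 ± 0.10 at 6 h (edgeR adjusted p = 0.00604) and 0.60 ± 0.10 at 24 h (edgeR adjusted p = 0.00227), or 1.49-fold and 1.51-fold. Both calls held without any 1 of the 12 libraries and under each of the 9 other settings tried in WAT. Of the members, Thra was the other one called at both times, and its call at 6 h did not hold in this way.

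Rxra (chr2:27676440-27762957, plus strand), the main RXR of adipocytes and liver, was called by edgeR between the 2 TH times and not against PTU, and is detailed here after its values were seen. It had 2560, 1695, 2012 and 1457 normalised counts with PTU, 2636, 2737, 2985 and 2834 at 6 h, and 1985, 1525, 1857 and 1700 at 24 h. All libraries of 6 h were above both other groups. The log2 change was 0.53 ± 0.15 at 6 h (edgeR adjusted p = 0.0502) and -0.13 ± 0.15 at 24 h (edgeR adjusted p = 0.585). The change at 6 h was called in 5 of 9 other settings, DESeq2 among them (adjusted p = 0.0105), and in edgeR without PTU replicate 1 (adjusted p = 0.00469) or replicate 2 of 24 h (adjusted p = 0.0408). It fell by 0.66 ± 0.15 from 6 h to 24 h (edgeR adjusted p = 0.0209), a call lost without replicate 2 (adjusted p = 0.0502) or replicate 4 of 24 h (adjusted p = 0.0598). Rxrg (chr1:167598384-167639623, plus strand) ranged from 292 to 476 normalised counts over the 12 libraries, with log2 changes of 0.09 ± 0.15 and 0.07 ± 0.15 and adjusted p of 0.739 and 0.780 in edgeR.

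**Figure D4:**
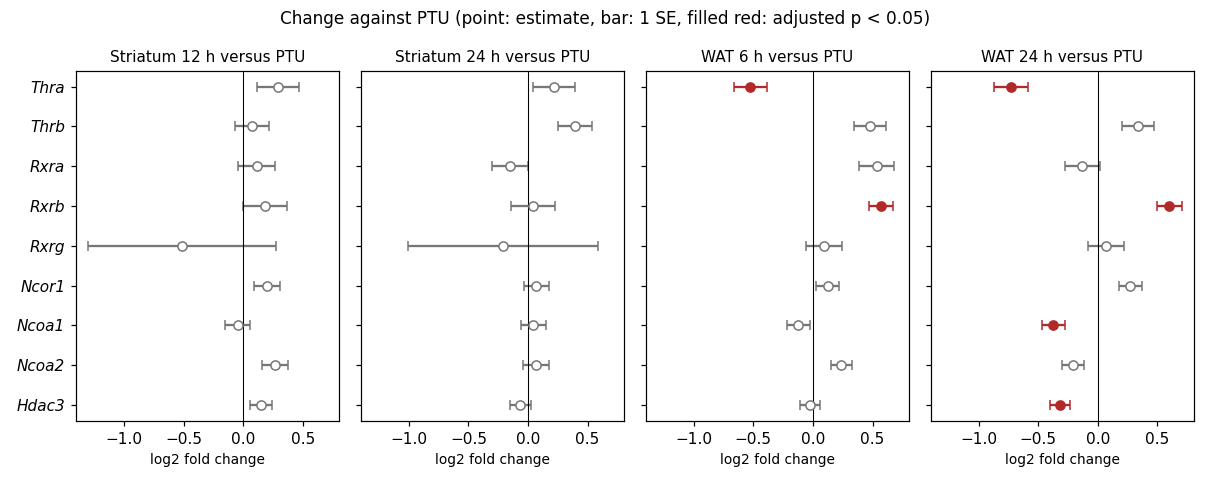
Log2 fold change against PTU (horizontal axis) of the 9 members at each time in each tissue. Points are edgeR estimates, bars 1 SE, and filled red points have an adjusted p under 0.05. Red points appear in the WAT panels only, 2 at 6 h and 4 at 24 h, and Rxrg in striatum has the widest bars (SE 0.79 and 0.80).

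The corepressor side of the complex gave small changes. Hdac3 (chr18:37935844-37955016, minus strand), the deacetylase held by NCoR1, had 1065, 1276, 1122 and 1082 normalised counts with PTU, 1070, 1048, 1241 and 1109 at 6 h, and 893, 886, 909 and 958 at 24 h. Only the libraries of 24 h stood apart, below the others. Hdac3 fell by 0.32 ± 0.08 on the log2 scale at 24 h (edgeR adjusted p = 0.0194), and this call was lost without PTU replicate 2 (adjusted p = 0.0632) or replicate 1 of 24 h (adjusted p = 0.0537). It was also lost in edgeR with no filter on low counts (adjusted p = 0.0710) and with only the 2 groups compared (adjusted p = 0.0526). At 6 h the change was -0.02 ± 0.08 (edgeR adjusted p = 0.878). Ncor1 (chr11:62316426-62458541, minus strand), the scaffold of the complex, ranged from 2306 to 2347 with PTU, from 2335 to 2741 at 6 h and from 2471 to 3147 at 24 h. Its change at 24 h, 0.27 ± 0.10, was not called by edgeR (adjusted p = 0.0738) and was called by DESeq2 (adjusted p = 0.0393), and the groups did not overlap.

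The coactivators Ncoa1 and Ncoa2 are paralogs of the SRC family, and their responses were not tested against each other. Ncoa1 (chr12:4247362-4477182, minus strand), which encodes SRC-1, had 876, 823, 831 and 820 normalised counts with PTU, 659, 824, 874 and 719 at 6 h, and 685, 607, 681 and 613 at 24 h. The libraries of 24 h were all below the PTU group, and those of 6 h overlapped it. Ncoa1 fell by 0.37 ± 0.09 at 24 h (edgeR adjusted p = 0.0179), a call lost without replicate 2 (adjusted p = 0.0508) or replicate 4 of 24 h (adjusted p = 0.0524), and without the 2 libraries above 10000 CPM of muscle RNA (edgeR adjusted p = 0.0643). At 6 h its change was -0.12 ± 0.09 (edgeR adjusted p = 0.434). Ncoa2 (chr1:13139105-13374083, minus strand), which encodes TIF2 and is detailed after its values were seen, had 711, 747, 760 and 678 with PTU, 891, 951, 779 and 795 at 6 h, and 646, 596, 689 and 573 at 24 h. Every library of 6 h was above the PTU group and those of 24 h overlapped it. Neither contrast with PTU was called (0.24 ± 0.09, edgeR adjusted p = 0.129, and -0.21 ± 0.09, edgeR adjusted p = 0.133).

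Set directly against 6 h, 3 of 9 members were lower at 24 h and 0 higher, where 7.41% of all genes were called, 3.07% higher and 4.35% lower. Beside Rxra these were Ncoa2, which fell by 0.45 ± 0.09 (edgeR adjusted p = 0.0137), and Hdac3, which fell by 0.29 ± 0.08 (edgeR adjusted p = 0.0491). The call of Ncoa2 held without any 1 of the 12 libraries. That of Hdac3 held in 3 of 12 and was lost without PTU replicate 3, any library of 6 h or any library of 24 h (edgeR adjusted p up to 0.129). The skeletal muscle markers stood higher at 24 h than at 6 h in their median (5845 against 309 CPM). With their mean as a covariate, the adjusted p of Rxra, Ncoa2 and Hdac3 was 0.0692, 0.102 and 0.203 in edgeR and 0 of 9 members were called, with log2 changes of -0.69, -0.35 and -0.27. The same covariate kept Thra, Rxrb, Ncoa1 and Hdac3 called at 24 h against PTU, with an adjusted p of 0.00871, 0.00304, 0.0272 and 0.0419 in edgeR, and Thra and Rxrb at 6 h with 0.0317 and 0.0124. Without the 4 libraries above 5000 CPM of muscle RNA (2 with PTU and 2 of 24 h), 2 members were called at 24 h, Thra and Rxrb, in place of 4. White adipocyte markers were lower at 24 h than with PTU without overlap. The 5 markers of stratified epithelium summed to 3.62 to 21.97 CPM with PTU, 1.84 to 141 at 6 h and 0.226 to 0.464 at 24 h, and the 5 of leukocytes to 128 to 259, 165 to 305 and 231 to 292 CPM. The part of these lists in the changes was not tested. Between 6 h and 24 h the clock gene Nr1d1 fell by 2.25 ± 0.20 on the log2 scale (edgeR adjusted p = 8.77e-05). The labels do not give the hour of the day at collection, and its part in the differences between the groups was not tested.

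The second comparison asks the same of striatum. There 0 of 9 members were called at 12 h, 0 at 24 h and 0 between the times by edgeR, against 0.96%, 0.348% and 0% of the 15827 genes tested. At an unadjusted p under 0.05 there were 1, 1 and 2 members, and DESeq2 called 0 members in each contrast. Of the 15827 genes tested, 3197 at 12 h, 1524 at 24 h and 2309 between the times had an unadjusted p under 0.05 in edgeR. Between the times DESeq2 called 261 genes. The 2 control libraries limit what could be detected. The groups did not overlap for 4 of 9 members at 12 h, where 36.4% of all genes did not, and for 1 of 9 at 24 h, where 18.2% did not. The hormone target Hr, given as a check of the treatment, had 38.8 and 57.4 normalised counts with PTU, 245 to 295 at 12 h and 255 to 381 at 24 h.

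**Figure D5:**
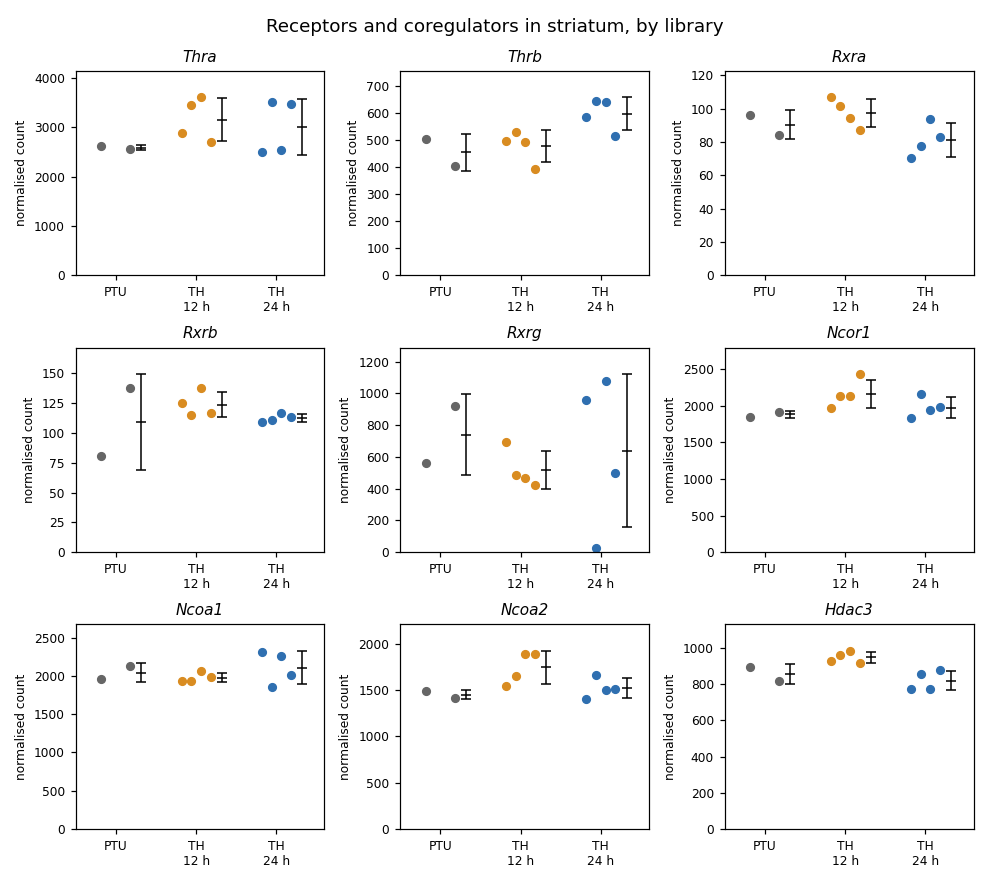
Normalised counts (vertical axes, each from 0) of the 9 members in the 10 striatum libraries. Points are libraries and black bars the mean ± SD (n = 2 with PTU, n = 4 at 12 h and at 24 h). The counts of Rxrg spread most, from 24.7 to 1076 at 24 h, and those of Thra from 2496 to 3601 over all libraries.

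Thra had 2616 and 2548 normalised counts in the PTU libraries of striatum, 2874, 3448, 3601 and 2694 at 12 h, and 2496, 3518, 2532 and 3468 at 24 h. The libraries of 12 h were above and those of 24 h around the controls, with log2 changes of 0.29 ± 0.18 (edgeR adjusted p = 0.382) and 0.22 ± 0.17 (edgeR adjusted p = 0.726). Thrb had 504 and 406 with PTU, 498, 530, 494 and 394 at 12 h, and 587, 644, 643 and 515 at 24 h. All 4 libraries of 24 h were above the controls, with a log2 change of 0.39 ± 0.14, an unadjusted p of 0.0205 and an adjusted p of 0.415 in edgeR. It was the member with the lowest p in that contrast, and Ncoa2 had the lowest at 12 h (0.27 ± 0.11, edgeR adjusted p = 0.216).

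Rxrg had 561 and 920 normalised counts with PTU, 695, 486, 470 and 426 at 12 h, and 961, 24.7, 1076 and 496 at 24 h. The lowest value belonged to the library with the fewest striatal and the most cortical marker counts. Its log2 changes were -0.51 ± 0.79 (edgeR adjusted p = 0.755) and -0.21 ± 0.80 (edgeR adjusted p = 0.953), and the latter was 0.17 without that library. The genes whose log2 CPM followed Rxrg most closely over the 10 striatum libraries, of 9841 with a mean of 100 counts or more, were Ppp1r1b (Pearson's r = 0.998), Drd2 (r = 0.998) and Slc35d3 (r = 0.998). Ppp1r1b, which encodes DARPP-32, and the dopamine receptor gene Drd2 are markers of striatal projection neurons, and all 10 points share 1 library at the low end. In the same library Rxrb was 52.9% of the RXR counts per kilobase. Of the other RXRs, Rxra ranged from 70.4 to 107 and Rxrb from 80.7 to 138 normalised counts in striatum.

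The coregulators were steady in striatum. Ncor1 ranged from 1824 to 2427 normalised counts, Ncoa1 from 1856 to 2307, Ncoa2 from 1404 to 1891 and Hdac3 from 772 to 982. Their log2 changes against PTU lay between -0.06 for Hdac3 at 24 h and 0.27 for Ncoa2 at 12 h. Hdac3 had 929, 963, 982 and 917 at 12 h and 772, 854, 773 and 876 at 24 h, without overlap, a difference of -0.21 ± 0.07 that was not called (edgeR adjusted p = 0.230).

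Whether the responses of the 2 tissues at 24 h differed was tested as an interaction over all 22 libraries. For Thra, the only member called of 9 (5.13% of the 12766 genes tested were called), the response was lower in WAT than in striatum by 0.95 ± 0.24 on the log2 scale (edgeR adjusted p = 0.0257). In the fits of each tissue alone the change was -0.73 in WAT and 0.22 in striatum. The call held without 20 of the 22 libraries and was lost without either striatum control (adjusted p = 0.108 without replicate 3 and 0.126 without replicate 6 in edgeR), when 1 library stands for that group and is taken to vary like the others. In edgeR it was also lost in a fit of only the 4 groups concerned (adjusted p = 0.0831) and kept with a term for Y-linked counts (adjusted p = 0.0424). Rxrb, which rose in WAT, had an interaction of 0.56 ± 0.20 that was not called (edgeR adjusted p = 0.119), and was called without striatum PTU replicate 3 (0.91 ± 0.18, edgeR adjusted p = 0.0127) and 0.12 ± 0.20 without replicate 6 (edgeR adjusted p = 0.835). For Ncoa1 (-0.41 ± 0.14, edgeR adjusted p = 0.103) and Hdac3 (-0.25 ± 0.12, edgeR adjusted p = 0.257) the difference was not called either.

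A wider list of 32 genes of the same machinery was counted beside the members, all tested in both tissues. In WAT 6 were higher and 0 lower at 6 h, with a median log2 change of 0.15, and 6 were higher and 1 lower at 24 h, with a median of 0.09. These are 18.8% and 21.9% of the list, beside 7.23% and 17.1% of all genes, so the share at 24 h was near that of all genes. The 10 coactivators of this list do not include Ncoa1 and Ncoa2, of which edgeR called Ncoa1 lower at 24 h and neither higher. Of the 10, 4 rose at each time, where 4.18% and 7.45% of all genes were called higher. Of these, Ncoa3, named after its values were seen, kept its call without 3 of 12 libraries at 6 h and 2 of 12 at 24 h, and in 4 of 9 other settings at each time. Hr, a corepressor and a classical target of TH, went from 91.0 to 167 normalised counts with PTU to 1228 to 1821 at 6 h and 2212 to 2738 at 24 h (log2 changes 3.56 ± 0.19 and 4.19 ± 0.19, edgeR adjusted p = 1.01e-06 and 2.15e-07). Ppargc1a, the coactivator PGC-1α of mitochondrial and brown fat genes, went from 61.5 to 90.2 with PTU to 583 to 689 at 6 h and 281 to 504 at 24 h (3.10 ± 0.18 and 2.38 ± 0.18, edgeR adjusted p = 1.24e-06 and 8.87e-06). The list of brown and beige adipocyte markers, which holds Ppargc1a, summed to 39.5 to 97.0 CPM with PTU, 178 to 366 at 6 h and 226 to 814 at 24 h.

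The next by adjusted p were smaller changes in WAT. At 6 h the acetyltransferase gene Ep300 (0.41 ± 0.10, edgeR adjusted p = 0.0303) and the Mediator subunit Med1 (0.36 ± 0.09, edgeR adjusted p = 0.0355) rose. The call of Ep300 was lost in 6 of 9 other settings and that of Med1 in 5 of 9. At 24 h Tbl1x, a subunit of the NCoR1 complex, fell by 0.83 ± 0.13 (edgeR adjusted p = 0.00129), from 1783 to 2746 normalised counts with PTU to 1071 to 1411. The acetyltransferase gene Kat2a rose by 0.50 ± 0.12 (edgeR adjusted p = 0.0119). Tbl1x and Kat2a kept their calls without any 1 of the 12 libraries, and Kat2a lost it without the 4 above 5000 CPM of muscle RNA (edgeR adjusted p = 0.0759). The Mediator group had 1 of 7 members called at each time (14.3%, beside 7.23% and 17.1% of all genes), and the 4 chromatin remodelling genes had 0 called by edgeR, with 0 at 6 h and 1 at 24 h under an unadjusted p of 0.05. Of the 17928 genes tested, 4557 at 6 h and 5740 at 24 h were under that unadjusted p.

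In striatum Hr was called at both times. It was 1 of 2 genes called of the 32 at 12 h and the 1 gene called at 24 h. These are 6.25% and 3.125% of the list, beside 0.96% and 0.348% of all genes tested. Hr rose by 2.49 ± 0.21 (edgeR adjusted p = 0.00260) and by 2.68 ± 0.21 (edgeR adjusted p = 0.00125), and both calls were lost without PTU replicate 3 (adjusted p = 0.129 and 0.0660). Ncor1 was not called by edgeR in any contrast of either tissue.

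The genes most like each hormone receptor across libraries were found in the same way as for Rxrg. In WAT (12 libraries, 12289 genes) Thra was followed by Tril (r = 0.961), Mllt4 (r = 0.961) and Ptprg (r = 0.958), and Thrb by Klhl22 (r = 0.911) and, as the third, Prdm16 (r = 0.887). Prdm16 encodes a cofactor known from brown and beige fat. In striatum (10 libraries) Thra was followed by Tpgs1 (r = 0.963), Aars (r = 0.959) and Kifc2 (r = 0.954), and Thrb by Bag1 (r = 0.941), Ppa2 (r = 0.929) and Mal2 (r = 0.904). In WAT the likeness of Rxrg was weaker, with Ubl7 first (r = 0.858), then Sssca1 and, as the third, Fam89b (r = 0.782). These values describe the libraries, whose groups and makeup they share.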

How the data were processed

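Total RNA of striatum and of white adipose tissue was sequenced in 22 libraries (10 and 12), which the labels place in 6 groups. The authors aligned the reads with Bowtie (Bowtie2 2.2.6.2 in the submitters' processing notes) to mm10, removed alignments of low quality and deposited raw counts per gene from htseq-count, 1 table per tissue. The annotation release, the use of strand and the treatment of overlapping genes are not given in the sources used here.

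Genes whose normalised counts averaged more than 10 over a tissue's libraries were tested in edgeR 4.0.16 (R 4.3.3) by the quasi-likelihood test with TMM factors, 1 fit of 3 groups per tissue and 1 of all 22 libraries for the difference between tissues. Tests were two-sided, with Benjamini-Hochberg adjustment over all genes tested and a call at an adjusted p under 0.05. SE is the log2 change divided by the square root of F. Rows whose gene name had turned into a date (14 in striatum and 15 in WAT) were left out. In WAT, 235 pairs of rows held counts within 2% of each other, none with a member, and 86 such rows with 6.088% of the counts were dropped in an alternative. Lengths, overlaps and coordinates came from a GRCm38 annotation, and promoter sequences from RefSeq (GRCm38.p6).

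All 9 members were named, with values in every library for Thra, Thrb and each member called against PTU, and for the others a range, except where stated. From the list of 32 coregulators the called genes were named, at most 4 per contrast by adjusted p. For likeness, 3 genes per receptor were named by Pearson's r of log2 CPM among genes with a mean of 100 or more. The members and lists were chosen with earlier results of these data known. DESeq2 1.42.0, its size factors, no filter, only the compared groups, a replicate block, Y-linked and skeletal muscle covariates and leaving out libraries were the alternatives. Scripts were tested on simulated data with known changes. Replicates with the same number did not deviate together in every pair, so the numbers were not taken to pair samples. Some genes that the naming rule selects are not reported here.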

Additional observations from a re-analysis of the deposited data

Results flagged for a closer look

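Several differences passed the test of the difference itself. Between 24 h and 6 h in WAT, the log2 difference was -0.66 for Rxra, -0.45 for Ncoa2, -0.29 for Hdac3, -0.73 for Ppargc1a, 0.63 for Hr and -0.53 for Tbl1x. Ppargc1a and Tbl1x were thus lower and Hr higher at the later time (edgeR adjusted p = 0.01995, 0.0306 and 0.0373). Without 1 library these calls held in 9, 6 and 5 of 12 fits, and in other settings in 8, 7 and 6 of 9. Ppargc1a lost its call without replicate 4 of 6 h or replicates 3 or 4 of 24 h, Tbl1x without replicates 2, 3 or 4 of either time, and Hr without replicates 2, 3 or 4 of 6 h or any library of 24 h (edgeR adjusted p up to 0.0522, 0.0774 and 0.0966). Between the responses of WAT and striatum at 24 h, the log2 difference was -0.95 for Thra, 1.89 for Ppargc1a, 1.51 for Hr and -0.91 for Tbl1x (edgeR adjusted p = 0.0257, 9.70e-05, 0.00504 and 0.0148). Of these calls, that of Hr was lost without striatum PTU replicate 6 (edgeR adjusted p = 0.115) and that of Tbl1x without either striatum control (0.115 without replicate 3 and 0.0542 without replicate 6), while that of Ppargc1a held without any 1 of the 22 libraries. Against PTU, edgeR called Hr in both tissues and Ppargc1a in WAT alone. In striatum the log2 change of Ppargc1a was 0.68 at 12 h (edgeR adjusted p = 0.0619) and 0.49 at 24 h (edgeR adjusted p = 0.287). The members' values in the 5 groups of 4 libraries (45 in all) held 0 outlying libraries by Dixon's test, which chance alone would mark in some groups. The test sets the gap to the nearest value against the range of the group. It did not mark the Rxrg count of 24.7 in striatum at 24 h, beside 496, 961 and 1076. It thus does not show that no library stood apart.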

How the results depend on the processing

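Of the members called, Rxrb in WAT at both times and Thra in WAT at 24 h passed in every setting and without any 1 library. At 6 h in WAT, DESeq2 and edgeR with the size factors of DESeq2 each called 4 members in place of 2, and 1 to 4 were called when 1 library was left out, with 4 without PTU replicate 1 or replicate 2 of 24 h. At 24 h, leaving out the libraries above 5000 CPM of muscle RNA left 2 in place of 4. Between 24 h and 6 h, 0 were called with the muscle covariate, 1 without those libraries, and 1 to 3 without 1 library. For the difference between tissues, 0 were called with only the groups of the contrast, and 0 to 1 without 1 library. Without striatum PTU replicate 3 the 1 called was Rxrb in place of Thra. The limits of 5000 and 10000 CPM of muscle RNA and the transcript length for shares were chosen after seeing the data.

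The replicate numbers were not taken to pair the samples (correlation of deviations -0.38 to 0.25 over 6 pairs in striatum, -0.47 to 0.38 over 12 in WAT). It was above 0.1 in 3 of the 6 and 4 of the 12 pairs. The labels do not name the animals, so these values cannot show whether libraries of the same number belong together. With the replicate block, 0 members were called for the difference between tissues, Thra at 6 h in WAT had an adjusted p of 0.0806 in edgeR and Hdac3 between the times 0.0972. The block also turned Rxrg to 0.56 at 12 h, 0.41 at 24 h and -0.15 between the times in striatum, Ncoa1 to 0.10 at 12 h, and for the difference between tissues Thrb to 0.0166 and Rxrg to -0.34.

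Other log2 changes that turned sign were not called. With the Y-linked covariate these were Rxrb in striatum at 24 h (-0.0874), and Thra (0.0216) and Rxrg (-0.16) between its times. With 2 groups Hdac3 at 6 h in WAT was 0.0023. Without the libraries above 10000 CPM of muscle RNA, Rxrg between the times was 0.0826 and Rxra between tissues -0.0110. Without those above 5000 CPM, Rxrg between the times was 0.10, Thrb 0.0332, and Thrb between tissues 0.0440. Leaving out 1 library gave, in striatum at 12 h, Thrb -0.0738 to 0.23, Rxrb -0.16 to 0.62 and Ncoa1 -0.12 to 0.0173, and at 24 h Rxrb -0.30 to 0.48, Rxrg -0.58 to 0.19 and Ncoa1 -0.0307 to 0.11. Between its times it gave Thra -0.17 to 0.0085 and Rxrg -0.0663 to 0.69. In WAT it gave Hdac3 at 6 h -0.0785 to 0.0359, at 24 h Rxra -0.23 to 0.0359 and Rxrg -0.0433 to 0.19, and between the times Rxrb -0.0390 to 0.0603 and Rxrg -0.13 to 0.0825. Between tissues it gave Thrb -0.19 to 0.10, Rxra -0.0728 to 0.20 and Rxrg -0.11 to 0.67. The cause of these changes was not tested.

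Over all genes, DESeq2 called 860, 203 and 261 in striatum at 12 h, 24 h and between the times, where edgeR called 152, 55 and 0, and 2145 in WAT at 6 h against 1296. In striatum the 2 control libraries limit the precision of every member, and Rxra and Rxrb had 69 to 152 counts per library there.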
